A study of Mus musculus with 7 samples.

Results

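The erythroid genes described here are 34 genes of red blood cell formation other than the globins, listed by symbol: transcriptional regulators, the erythropoietin receptor, heme synthesis enzymes, iron and mitochondrial carriers, proteins of the red cell membrane and its skeleton, and other proteins enriched in erythroid cells. Of these, 33 were found among the 25461 genes of the deposited table, and Ahsp was not analysed here. Trim58 averaged under 1 FPKM (fragments per kilobase of transcript at equal depth) and was not tested, which left 32 of the 16095 genes tested. The measurements were made on single whole embryos at E11.5, strain B6C3F1, 3 with the SLMAP3 knockout (KO) and 4 wild type (WT), with the tails removed for genotyping. In the KO line the exon of Slmap flanked by LoxP sites was deleted in the whole embryo by a CMV-driven Cre, the Cre was bred out, and the deletion removes SLMAP3 but leaves the smaller SLMAP isoforms. The labels name the embryos KOAC8, KOAC9 or KOAC10 followed by a number and do not say whether these series are litters, so that p-values measure the spread between embryos.

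Red blood cells at this age come from the yolk sac, as large primitive cells already in the circulation, and from the fetal liver, where definitive erythropoiesis begins. GATA1, with its cofactors, and KLF1 switch on the genes of heme synthesis, the globins and the membrane proteins, while erythropoietin keeps the precursors alive. Heme is assembled in steps shared between mitochondria and cytosol, and the membrane is held to a spectrin skeleton by ankyrin and adducin.

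Slmap was at 17.4 ± 1.92 FPKM (SD, n = 3) in the KO and 26.7 ± 4.04 FPKM (SD, n = 4) in the WT embryos, and all KO embryos were below all WT embryos. The globin genes held 2.19 to 2.66% of the summed FPKM in KO and 3.06 to 4.05% in WT embryos, so that blood was present in each embryo and the groups did not overlap. The embryos differed in liver transcripts. Afp, a gene of hepatoblasts and of yolk sac endoderm, was at 255 FPKM in KOAC8-6 and 308 FPKM in KOAC10-8, both KO, and at 376 FPKM in KOAC8-1 and 278 FPKM in KOAC9-1, both WT. It was at 5.18 FPKM in the KO embryo KOAC10-5, 1.30 FPKM in the WT embryo KOAC10-7 and 2.49 FPKM in the WT embryo KOAC10-2. Albumin (Alb) was at 70.4 and 65.2 FPKM in the Afp-high KO embryos and 180 and 136 FPKM in the Afp-high WT embryos, and at 1.63 FPKM in KOAC10-5, 0.313 FPKM in KOAC10-7 and 0.885 FPKM in KOAC10-2. How much fetal liver each library held is not recorded in the labels. In whole embryos, fewer red cells and less RNA per red cell cannot be told apart. Values are given below in the order KOAC8-6, KOAC10-8 and KOAC10-5 for KO embryos and KOAC8-1, KOAC9-1, KOAC10-7 and KOAC10-2 for WT embryos, so that the Afp-low embryos stand last in each group.

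Of the 32 erythroid genes tested, 28 had a log2 fold change of KO against WT below 0 (87.5%), where 46.9% of all genes tested did. Their median log2 fold change was -0.30, against 0.01 over all genes, and 5.52% of all genes tested were lower than that median. Without the KO embryo KOAC10-5 the median was -0.16 and 21 members were below 0. Standard errors (SE) are on the same log2 scale. With limma on log2(FPKM + 1) and Benjamini-Hochberg adjustment over all genes, 0 of the 32 had an adjusted p under 0.05, a level that 0.0373% of all genes reached. At an unadjusted p under 0.05, 8 members were lower in KO (25.0%, against 6.19% of all genes) and 0 were higher (against 5.27%). The count of 8 was 5 without the WT embryo KOAC8-1 or KOAC9-1 and 14 without the WT embryo KOAC10-7. The 8 were Trim10, Kel, Slc25a38, Bpgm, Tmcc2, Add2, Slc4a1 and Ank1. For the first 5, all KO embryos were below all WT embryos (15.6% of members, against 5.98% of all genes), and for 0 members was every KO embryo above every WT embryo (against 5.61%). The 4 members above 0 were Hemgn (0.17), Tfrc (0.09), Gfi1b (0.07) and Zfpm1 (0.02), the last of which was at -0.01 when the embryos were scaled to a common sum without globins. The median of the members was between -0.31 and -0.33 under the 4 other scalings.

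**Figure D1:**
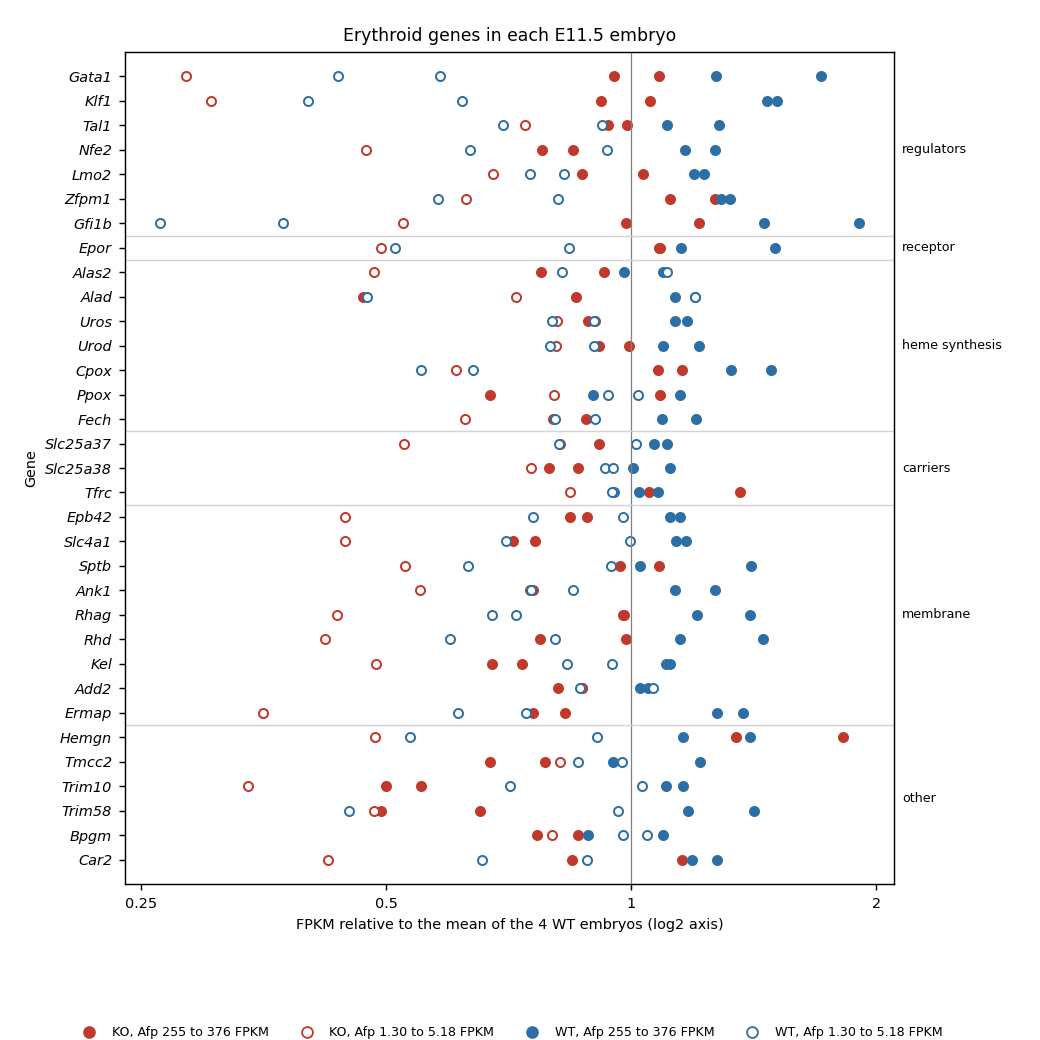
FPKM of 33 erythroid genes in 3 KO (red) and 4 WT (blue) embryos, each divided by the mean of the 4 WT embryos, on a log2 axis. Open circles are the 3 embryos with Afp at 1.30 to 5.18 FPKM and filled circles the 4 with Afp at 255 to 376 FPKM. The open circles lie to the left for most regulators, and the red ones lie left of the blue ones of the same fill for most membrane genes.

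A second pattern ran across the genotypes, described here by Afp, which is a property of the libraries and not a group of the study. For 14 of the 32 members, the 3 Afp-low embryos were all below the other 4 (43.8%, against 7.12% of all genes). These were Gata1, Klf1, Tal1, Lmo2, Zfpm1, Gfi1b, Epor, Urod, Cpox, Tfrc, Sptb, Rhag, Ermap and Hemgn. Among WT embryos alone, the mean of the Afp-high pair was 5.29 times that of the Afp-low pair for Gfi1b, 2.93 times for Gata1, 2.92 times for Klf1 and 2.36 times for Cpox, but 1.05 times for Ppox and 0.980 times for Bpgm. Of the marker genes of fetal liver other than Afp, which defines these 3 embryos, 9 of 9 tested were likewise lowest in them. The summed FPKM of the markers without Afp was 232, 267 and 11.0 in KO and 485, 377, 5.38 and 7.11 in WT embryos. Of the megakaryocyte and platelet markers, whose precursors share GATA1, GFI1B and TAL1 with erythroid cells, 6 of 7 tested were lowest in the same embryos, with sums of 27.1 to 72.5 FPKM in KO and 33.6 to 93.6 FPKM in WT embryos. Their most abundant gene, Pf4, was at 28.0 ± 13.0 FPKM (SD, n = 3) in the KO and 30.4 ± 16.4 FPKM (SD, n = 4) in the WT embryos. Their part in the erythroid values was not tested.

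Because each genotype held both kinds of embryo, KO and WT were also compared among embryos of like Afp. Embryos of like Afp were not alike in other liver transcripts. Of the 9 other fetal liver markers tested, 7 had both Afp-high KO embryos below both Afp-high WT embryos. For 0 of the 9 was the Afp-low KO embryo below both Afp-low WT embryos. Over all 7 embryos without a covariate, 9 of the 10 fetal liver markers tested, Afp among them, had a log2 fold change above 0. Their median was 0.24, and 0 had an unadjusted p under 0.05. Among the 4 Afp-high embryos, both KO embryos were below both WT embryos for 28 of the 32 members (87.5%, against 22.2% of all genes), the others being Ppox, Tfrc, Sptb and Hemgn. Among the 3 Afp-low embryos, the 1 KO embryo was below both WT embryos for 24 members (75.0%, against 34.9%). With log2(Afp FPKM + 1) as a covariate in limma, 31 members had a log2 fold change below 0 (96.9%, against 47.8% of all genes), and the median of the members was -0.42, against 0.01 over all genes. An unadjusted p under 0.05 was then reached by 24 members, all lower in KO (75.0%, against 6.69% of all genes). The fetal liver markers moved with them in this fit: 7 of the 9 other than Afp were lower at that level, with a median of -0.66. All 7 megakaryocyte and platelet markers tested were below 0 as well, with a median of -0.33 and 2 lower at that level. For 7 of these 7 the Afp-low KO embryo was below both Afp-low WT embryos. For 2 of the 7 both Afp-high KO embryos were below both Afp-high WT embryos. The part of either list in the erythroid values was not tested. The count of members with an adjusted p under 0.05 stayed 0, where 10 genes of all those tested passed. The smallest adjusted p-values of members in this limma fit were 0.0653 for Ank1, 0.0807 for Kel and 0.0905 for both Trim10 and Ermap.

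**Figure D2:**
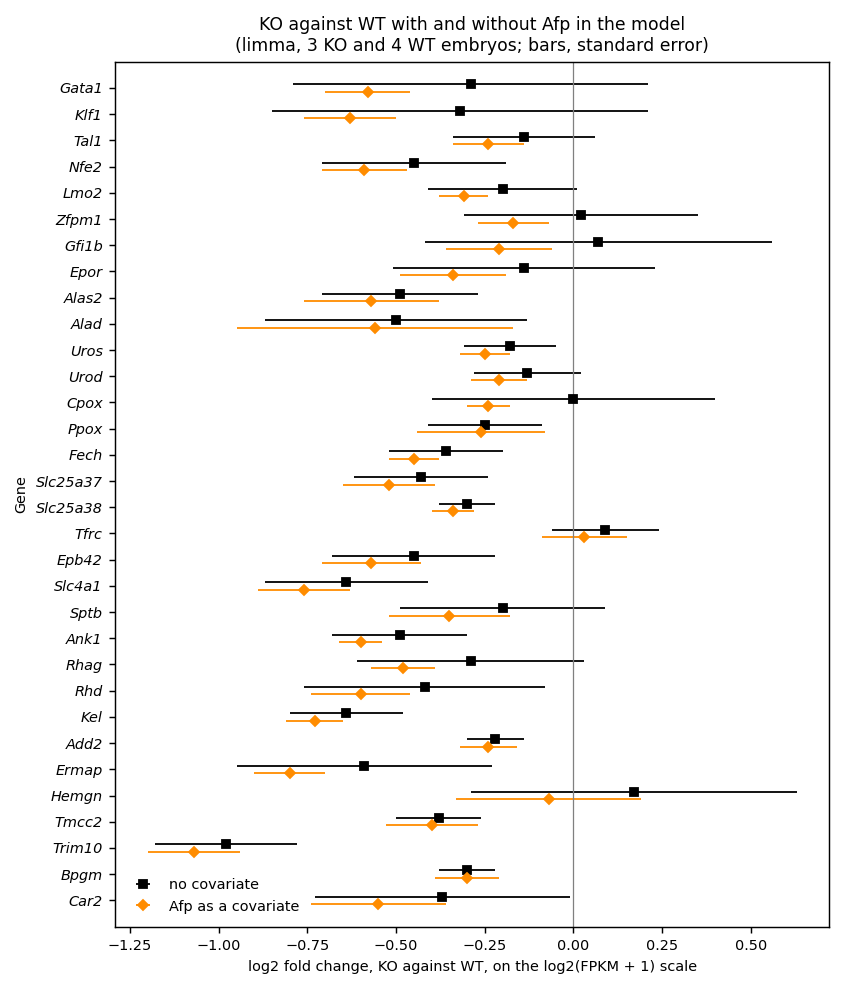
Log2 fold change of KO against WT on the log2(FPKM + 1) scale for the 32 erythroid genes tested, with 1 standard error, in limma without a covariate (black squares) and with Afp as a covariate (orange diamonds), over 3 KO and 4 WT embryos. The standard error of Gata1 went from 0.50 to 0.12 and that of Klf1 from 0.53 to 0.13, and Tfrc alone stayed above 0 with the covariate.

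The promoters of 5 members, from 250 bases before to 50 bases after the start of transcription, are shown because GATA1 and KLF1 act on such regions: those of Klf1, Epor and Alas2, a regulator, a receptor and a heme enzyme, and those of Kel and Trim10, the 2 members with the smallest unadjusted p. Sequences are those of RefSeq on GRCm38.p6, 5′ to 3′ on the strand of the gene. Capitals mark GATA motifs (the letters AGATAA or AGATAG, or TGATAA or TGATAG) and KLF motifs (CCNCNCCC), on either strand. The windows lie at chr8:84901732-84902031 on the + strand (Klf1), chr9:21963527-21963826 on the - strand (Epor), chrX:150547167-150547466 on the + strand (Alas2), chr6:41704276-41704575 on the - strand (Kel) and chr17:36869324-36869623 on the + strand (Trim10).
Klf1: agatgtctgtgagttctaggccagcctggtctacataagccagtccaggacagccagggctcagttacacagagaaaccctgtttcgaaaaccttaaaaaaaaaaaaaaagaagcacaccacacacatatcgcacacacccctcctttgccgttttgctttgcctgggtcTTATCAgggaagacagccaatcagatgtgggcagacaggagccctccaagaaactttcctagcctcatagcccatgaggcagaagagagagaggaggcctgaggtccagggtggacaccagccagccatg
Epor: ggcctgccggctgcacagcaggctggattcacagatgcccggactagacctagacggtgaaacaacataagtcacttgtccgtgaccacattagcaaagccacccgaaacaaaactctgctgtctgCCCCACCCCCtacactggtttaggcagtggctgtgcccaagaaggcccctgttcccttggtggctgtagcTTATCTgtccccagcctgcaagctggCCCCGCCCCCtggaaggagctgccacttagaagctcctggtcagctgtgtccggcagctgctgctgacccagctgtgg
Alas2: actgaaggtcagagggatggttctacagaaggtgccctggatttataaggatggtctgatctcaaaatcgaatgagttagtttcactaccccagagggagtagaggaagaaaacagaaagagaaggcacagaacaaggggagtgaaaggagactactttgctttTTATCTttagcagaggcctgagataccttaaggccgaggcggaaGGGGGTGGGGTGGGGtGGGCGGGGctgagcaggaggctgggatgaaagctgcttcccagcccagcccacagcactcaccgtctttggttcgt
Kel: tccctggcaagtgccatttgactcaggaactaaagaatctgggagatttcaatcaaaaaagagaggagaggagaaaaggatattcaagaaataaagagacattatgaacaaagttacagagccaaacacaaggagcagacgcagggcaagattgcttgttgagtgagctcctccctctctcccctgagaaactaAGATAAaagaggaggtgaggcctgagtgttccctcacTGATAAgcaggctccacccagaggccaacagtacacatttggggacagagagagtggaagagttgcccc
Trim10: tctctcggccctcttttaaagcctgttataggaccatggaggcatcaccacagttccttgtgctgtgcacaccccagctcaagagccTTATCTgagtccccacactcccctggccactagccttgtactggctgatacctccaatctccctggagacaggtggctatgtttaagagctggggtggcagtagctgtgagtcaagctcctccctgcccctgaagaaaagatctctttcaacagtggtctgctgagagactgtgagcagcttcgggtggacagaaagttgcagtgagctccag

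A GATA motif was found in each of the 5, and KLF motifs in those of Epor and Alas2 alone, 4 matches in each that partly overlap one another. Over the 32 promoters listed for 26 of the members, 18 held a GATA motif (56.2%, against 29.8% of 32851 promoters), 22 a KLF motif (68.8%, against 49.5%) and 9 both (28.1%, against 3367 of the 32851). The E-box letters CAGCTG or CATCTG or CAGATG, of the kind bound by TAL1 and its partners, were in 8 (25.0%, against 30.6%) and are not capitalised above. A match to these letters is a description of the sequence and not a measured binding site.

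Among the regulators, 5 of 7 had a log2 fold change below 0 (46.9% of all genes did), with a median of -0.20. In limma 0 of the 7 reached an unadjusted p under 0.05. For 6 of the 7 the 3 Afp-low embryos were below the other 4 (against 7.12% of all genes). Gata1, which encodes the master regulator of the erythroid lineage, was at 5.56, 6.31 and 1.66 FPKM in KO and 10.0, 7.42, 2.55 and 3.40 FPKM in WT embryos. The groups overlap, but the 2 Afp-high KO embryos were below both Afp-high WT embryos and the Afp-low KO embryo was the lowest of all 7. The log2 fold change of Gata1 was -0.29 (SE 0.50, adjusted p = 0.848 in limma) and -0.58 (SE 0.12, adjusted p = 0.275) with Afp as a covariate. Klf1, the activator of adult-type beta globin and of many membrane genes, was at 10.17, 8.85 and 2.94 FPKM in KO and 14.6, 14.2, 3.87 and 5.98 FPKM in WT embryos, in the same order. Its log2 fold change was -0.32 (SE 0.53) and -0.63 (SE 0.13) with the covariate.

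The most abundant regulators by FPKM were Lmo2, Zfpm1 and Tal1. Lmo2, the bridging protein that joins TAL1 to GATA1, was at 18.8, 22.3 and 14.6 FPKM in KO and 26.5, 25.7, 16.2 and 17.9 FPKM in WT embryos, with KO again below WT within each Afp class and a log2 fold change of -0.20 (SE 0.21, adjusted p = 0.739). Zfpm1, a cofactor of GATA factors, was at 14.5, 16.5 and 8.14 FPKM in KO and 16.8, 17.2, 7.54 and 10.6 FPKM in WT embryos. Here the genotypes interleave, and the log2 fold change was 0.02 (SE 0.33, adjusted p = 0.986), or -0.17 (SE 0.10) with the covariate.

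Tal1, a basic helix-loop-helix factor of blood and endothelium, ran from 9.65 to 12.9 FPKM in KO and from 9.07 to 16.7 FPKM in WT embryos, and its log2 fold change was -0.14 (SE 0.20, adjusted p = 0.809). Nfe2, the partner of small MAF proteins at globin control regions, was at 7.28, 7.95 and 4.43 FPKM in KO and 10.9, 11.9, 5.94 and 8.75 FPKM in WT embryos, and its log2 fold change of -0.45 was the lowest of the regulators (-0.59 with the covariate, SE 0.12). Gfi1b, a repressor shared with megakaryocytes, was at 2.61, 3.20 and 1.38 FPKM in KO and 5.04, 3.85, 0.696 and 0.986 FPKM in WT embryos. For Gfi1b the Afp-low KO embryo was above both Afp-low WT embryos while the Afp-high KO embryos were below their WT counterparts.

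Epor, the receptor of erythropoietin, was at 8.98, 9.01 and 4.08 FPKM in KO and 12.5, 9.55, 4.25 and 6.96 FPKM in WT embryos. The Afp-low embryos were below all others, and the log2 fold change was -0.14 (SE 0.37, adjusted p = 0.913 in limma), or -0.34 (SE 0.15) with Afp as a covariate. Its ligand gene Epo averaged 0.380 ± 0.180 FPKM (SD, n = 3) in the KO and 0.218 ± 0.134 FPKM (SD, n = 4) in the WT embryos and was not tested.

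**Figure D3:**
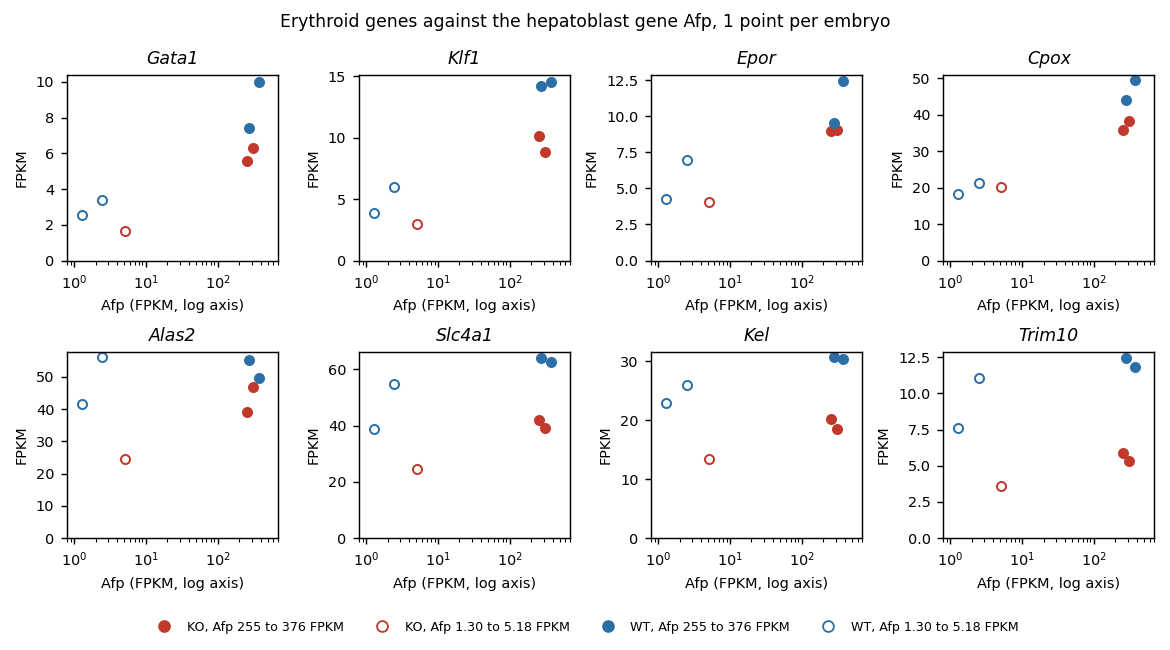
FPKM of 8 erythroid genes against FPKM of Afp (log axis), 1 point per embryo, with KO in red and WT in blue and Afp-low embryos open. In each panel the 2 filled red points are below the 2 filled blue ones, and the open red point is below both open blue ones in all but Cpox.

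All 7 heme synthesis enzymes had a log2 fold change below 0 (46.9% of all genes did). Their median was -0.25, with Cpox at -0.00. In limma 0 reached an unadjusted p under 0.05 (5 with Afp as a covariate, where 6.69% of all genes were lower). The most abundant were Alad, Urod and Ppox. Alad, the enzyme that joins aminolevulinate molecules to porphobilinogen, was at 75.7, 41.4 and 63.9 FPKM in KO and 106, 100, 106 and 41.9 FPKM in WT embryos. The low values belong to KOAC10-8 (KO) and KOAC10-2 (WT), which differ in Afp, and the log2 fold change was -0.50 (SE 0.37, adjusted p = 0.622). Urod, which decarboxylates uroporphyrinogen, was at 76.6, 83.3 and 67.8 FPKM in KO and 91.7, 102, 75.4 and 66.6 FPKM in WT embryos, with a log2 fold change of -0.13 (SE 0.15, adjusted p = 0.762). Ppox, the penultimate enzyme, was at 30.7, 49.7 and 36.9 FPKM in KO and 41.1, 52.7, 46.7 and 42.9 FPKM in WT embryos. The log2 fold change of Ppox was -0.25 (SE 0.16, adjusted p = 0.582), and 15.3% of its stretches of 50 bases also occur in B4galt3 or other transcripts.

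Alas2, the erythroid aminolevulinate synthase that sets the rate of the pathway, was at 39.2, 47.0 and 24.5 FPKM in KO and 49.7, 55.4, 41.6 and 56.1 FPKM in WT embryos. The KO embryo KOAC10-5 stood lowest and the others overlap, with a log2 fold change of -0.49 (SE 0.22, adjusted p = 0.452) that was -0.22 without KOAC10-5. Of its stretches of 50 bases, 11.5% are shared with other transcripts, chiefly Apex2. Fech, which inserts iron into protoporphyrin, was at 23.1, 25.4 and 18.0 FPKM in KO and 31.4, 34.7, 23.2 and 26.0 FPKM in WT embryos. KO was below WT within each Afp class, and the log2 fold change of -0.36 (SE 0.16) was -0.45 (SE 0.07) with the covariate.

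Cpox, the coproporphyrinogen oxidase, was at 35.9, 38.4 and 20.2 FPKM in KO and 49.4, 44.0, 18.3 and 21.2 FPKM in WT embryos. Its log2 fold change went from -0.00 (SE 0.40) to -0.24 (SE 0.06) with the covariate. Uros, which closes the porphyrin ring, ran from 17.8 to 19.8 FPKM in KO and from 17.6 to 25.7 FPKM in WT embryos.

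Alad was set beside its neighbours on chromosome 4 after its values were seen. Alad lies at chr4:62509169-62519918 on GRCm38, between Hdhd3 at chr4:62499008-62503467 and Pole3 at chr4:62522649-62525068, with Bspry at chr4:62480053-62497298. Hdhd3 was at 9.50, 3.17 and 10.1 FPKM in KO and 9.87, 11.3, 11.8 and 5.38 FPKM in WT embryos, lowest in the same 2 embryos as Alad. Bspry was at 0.671 FPKM in KOAC10-8 and 0.459 FPKM in KOAC10-2 and between 1.47 and 2.36 FPKM in the other 5. Pole3 ran from 50.3 FPKM in KOAC10-2 to 62.5 FPKM in KOAC10-8. Leaving out KOAC10-2 put the log2 fold change of Alad at -0.82, and leaving out KOAC10-8 put it at -0.25. What sets these 2 embryos apart at Alad was not tested.

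**Figure D4:**
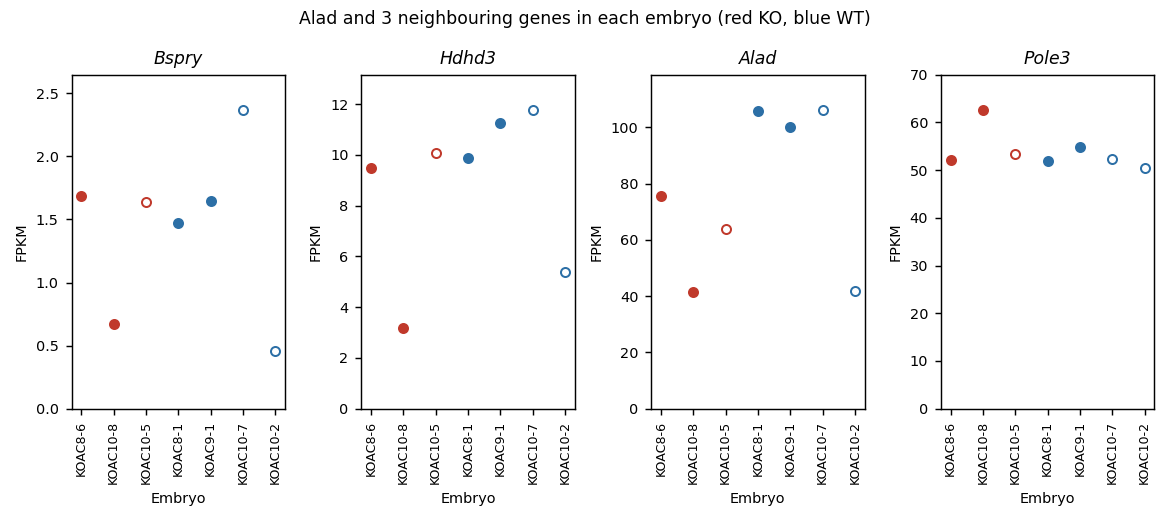
FPKM of Alad and 3 neighbouring genes of chromosome 4 in each embryo, KO in red, WT in blue, Afp-low embryos open, each axis from 0. Bspry, Hdhd3 and Alad are lowest in KOAC10-8 and KOAC10-2, while Pole3 is highest in KOAC10-8 and, at 50.3 FPKM, lowest in KOAC10-2.

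Of the 3 carriers, Slc25a38 alone had an unadjusted p under 0.05 (6.19% of all genes were lower at that level). Slc25a38 (chr9:120110374-120124504), which brings glycine into mitochondria for the first step of heme synthesis, was at 21.4, 19.7 and 18.8 FPKM in KO and 27.8, 25.0, 23.1 and 23.6 FPKM in WT embryos. All KO embryos were below all WT embryos (two-sided exact permutation test, p = 0.0286, which is as small as 3 against 4 embryos can give). The log2 fold change of Slc25a38 was -0.30 (SE 0.08, adjusted p = 0.293 in limma), and -0.34 with Afp as a covariate. Slc25a37, the mitochondrial iron importer mitoferrin, was at 37.2, 41.5 and 23.9 FPKM in KO and 48.5, 50.4, 37.1 and 46.1 FPKM in WT embryos, with a log2 fold change of -0.43 (SE 0.19). The WT embryo KOAC10-7 lay within the KO range, and 6.99% of the Slc25a37 stretches of 50 bases are shared with another transcript. Tfrc, the transferrin receptor of all dividing cells, was at 58.1, 44.8 and 35.9 FPKM in KO and 46.0, 43.6, 40.7 and 40.4 FPKM in WT embryos, and was the only member with a log2 fold change above 0 with the covariate (0.03, SE 0.12).

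All 9 genes of the membrane, its skeleton and its blood group proteins had a log2 fold change below 0 (46.9% of all genes did). Their median was -0.45. An unadjusted p under 0.05 was reached by 4 in limma (6.19% of all genes were lower at that level). It was reached by 8 with Afp as a covariate (against 6.69%). Kel (chr6:41686330-41704339), the endothelin-cleaving peptidase that carries the Kell antigens, was at 20.2, 18.5 and 13.3 FPKM in KO and 30.3, 30.7, 22.9 and 26.0 FPKM in WT embryos. All KO embryos were below all WT embryos, and the log2 fold change was -0.64 (SE 0.16, adjusted p = 0.286), between -0.76 and -0.48 with any 1 embryo left out. The exact permutation test of the means gave p = 0.0571, since 1 other choice of 3 embryos gave as large a difference.

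Slc4a1 (chr11:102348824-102366203), the chloride and bicarbonate exchanger that anchors the membrane to its skeleton, was at 42.0, 39.4 and 24.5 FPKM in KO and 62.5, 64.2, 38.7 and 54.9 FPKM in WT embryos. KO was below WT within each Afp class, while the Afp-low WT embryo KOAC10-7 was below both Afp-high KO embryos. The log2 fold change of Slc4a1 was -0.64 (SE 0.23, adjusted p = 0.395), and -0.76 (SE 0.13) with the covariate. The exact permutation test gave p = 0.114 for Slc4a1. Ank1 (chr8:22974844-23150497), the ankyrin that ties this exchanger to spectrin, was at 11.3, 11.4 and 8.29 FPKM in KO and 19.1, 17.0, 11.3 and 12.8 FPKM in WT embryos. Its log2 fold change of -0.49 (SE 0.19, adjusted p = 0.417) became -0.60 (SE 0.06, adjusted p = 0.0653) with the covariate. The exact permutation test gave p = 0.171 for Ank1.

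Add2 (chr6:86028681-86124409), the beta adducin of the skeleton that neurons express as well, was at 29.4, 27.5 and 29.4 FPKM in KO and 34.7, 35.4, 29.2 and 35.9 FPKM in WT embryos. The Afp-high WT pair was at 1.08 times the Afp-low pair, and the log2 fold change was -0.22 (SE 0.08, adjusted p = 0.387). In the exact permutation test Add2 had p = 0.114. Beside it, the median log2 fold change of 8 neuron markers was -0.04, with sums of 782 to 877 FPKM in KO and 772 to 940 FPKM in WT embryos. Their most abundant gene, Tubb3, was at 328 ± 46.6 FPKM (SD, n = 3) in the KO and 348 ± 37.0 FPKM (SD, n = 4) in the WT embryos.

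Ermap, which carries the Scianna antigens, was at 13.7, 12.5 and 5.80 FPKM in KO and 22.6, 21.0, 10.1 and 12.2 FPKM in WT embryos. It combined both patterns, with the Afp-low embryos below the rest and KO below WT within each class, and its log2 fold change went from -0.59 (SE 0.36) to -0.80 (SE 0.10) with the covariate. Of the other membrane members, Epb42, a protein bound to the anion exchanger, was at 8.81, 8.39 and 4.43 FPKM in KO and 11.5, 11.1, 7.56 and 9.76 FPKM in WT embryos. Rhag and Rhd, the Rh-associated ammonia channel protein and its Rh partner, had log2 fold changes of -0.29 (SE 0.32) and -0.42 (SE 0.34). Sptb, the erythroid beta spectrin, ran from 4.99 to 10.3 FPKM in KO and from 5.97 to 13.3 FPKM in WT embryos.

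Among the other erythroid proteins, 3 of the 5 tested were lower in KO at an unadjusted p under 0.05 (against 6.19% of all genes). Trim10 (chr17:36869574-36877833), a RING finger protein needed for terminal erythroid differentiation, was at 5.90, 5.34 and 3.61 FPKM in KO and 11.8, 12.4, 7.59 and 11.0 FPKM in WT embryos. All KO embryos were below all WT embryos, with means of 4.95 ± 1.19 FPKM (SD, n = 3) and 10.71 ± 2.16 FPKM (SD, n = 4). Its log2 fold change of -0.98 (SE 0.20, adjusted p = 0.274 in limma) was the lowest of all 32 members and stayed between -1.12 and -0.80 with any 1 embryo left out. The exact permutation test of the means gave p = 0.0571.

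Bpgm (chr6:34476207-34505613), which makes the bisphosphoglycerate that lowers the oxygen affinity of hemoglobin, was at 44.2, 49.6 and 46.1 FPKM in KO and 51.1, 63.2, 56.3 and 60.3 FPKM in WT embryos. Tmcc2 (chr1:132356315-132391281), a transmembrane coiled-coil protein, was at 18.7, 16.0 and 19.5 FPKM in KO and 22.7, 29.0, 20.6 and 23.3 FPKM in WT embryos. The Afp-high WT pair was at 0.980 times the Afp-low pair for Bpgm and 1.18 times for Tmcc2, and KO and WT embryos did not overlap for either. The log2 fold change of Bpgm was -0.30 (SE 0.08, adjusted p = 0.310) and that of Tmcc2 was -0.38 (SE 0.12, adjusted p = 0.354), each with an exact permutation p = 0.0571.

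Car2, the cytosolic carbonic anhydrase, was at 45.1, 61.6 and 22.6 FPKM in KO and 63.4, 68.1, 35.01 and 47.0 FPKM in WT embryos, with a log2 fold change of -0.37 (SE 0.36). Hemgn, a nuclear protein of blood progenitors, was at 18.9, 25.6 and 6.79 FPKM in KO and 19.7, 16.2, 7.50 and 12.7 FPKM in WT embryos. It was the member highest in KO by fold change, at 0.17 (SE 0.46), and at 0.69 without KOAC10-5 and -0.20 without KOAC10-8. Trim58, a ubiquitin ligase of late erythroblasts, was at 0.697, 0.528 and 0.517 FPKM in KO and 1.51, 1.26, 0.481 and 1.03 FPKM in WT embryos, too low to be tested.

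The median of the members within an embryo, as log2 difference from the WT mean, was -0.17 in KOAC8-6, -0.08 in KOAC10-8 and -0.76 in KOAC10-5, and 0.24, 0.27, -0.39 and -0.11 in the WT embryos. The WT embryo KOAC10-7 was therefore lower than 2 of the KO embryos. The KOAC8 series held 1 KO and 1 WT embryo, both Afp-high. Their log2 differences, KO from WT, were -0.75 for Gata1, -0.57 for Kel, -0.89 for Trim10 and 0.33 for Tfrc. The fetal liver markers without Afp summed to 232 FPKM in that KO embryo and 485 FPKM in that WT embryo. Within the KOAC10 series, where 1 of 2 KO and 0 of 2 WT embryos were Afp-high, the differences for Gata1, Kel and Trim10 were 0.16, -0.60 and -0.91. The KOAC9 series held 1 WT embryo and no KO embryo.

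Other genes of the same pathways, listed apart from the members, were examined in the same fit, and 0 had an adjusted p under 0.05. Over all genes tested, 6.19% were lower and 5.27% higher at an unadjusted p under 0.05. Of 20 other heme and iron genes, 1 was lower and 2 were higher at an unadjusted p under 0.05, with a median log2 fold change of -0.10. Blvra, a biliverdin reductase, was at 11.5, 11.9 and 12.4 FPKM in KO and 16.7, 16.5, 16.5 and 13.4 FPKM in WT embryos (log2 fold change -0.37, SE 0.09). The heme oxygenase Hmox1 (0.38) was among those higher. With Afp as a covariate 8 of the 20 were lower and 2 higher, with the reductase Blvrb at -0.73, where 6.69% of all genes were lower.

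Of 18 other red cell membrane genes, 2 were lower and 1 higher, with a median of -0.20. Slc2a1, the glucose transporter of red cells and of many other tissues, was higher in every KO embryo, at 63.0, 59.8 and 73.2 FPKM against 49.4, 47.6, 42.6 and 51.6 FPKM in WT embryos (log2 fold change 0.44, SE 0.09, adjusted p = 0.274 in limma). The adducin Add1 (-0.16) and the water channel Aqp1 (-0.58) were lower. With Afp as a covariate 11 of the 18 were lower and 1 higher, where 6.69% of all genes were lower. In that fit 7 of the 9 fetal liver markers other than Afp were lower as well. Of 23 other erythroid regulators tested, 1 was lower and 1 higher, the survival factor Bcl2l1 at -0.18 and the MAX partner Mxi1 at 0.15, and E2f2, a cell cycle factor, had the next smallest p (-0.19). Their median was -0.01, and 3 were lower and 1 higher with the covariate.

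Among the marker lists, the 4 adult-type globins, of which Hba-a1 and Hba-a2 share most of their sequence, were all lower in KO at an unadjusted p under 0.05, with a median of -1.28 and sums of 5551 to 6089 FPKM in KO and 8550 to 16580 FPKM in WT embryos, led by Hba-a1. Of the 3 primitive globins Hbb-y was at -0.57, with an unadjusted p under 0.05, while Hba-x was at -0.12 and Hbb-bh1 at 0.51, with sums of 11020 to 15160 FPKM in KO and 15050 to 20390 FPKM in WT embryos. The 8 endothelial markers had a median of 0.11, with 2 higher at an unadjusted p under 0.05 and sums of 117 to 125 FPKM in KO and 111 to 119 FPKM in WT embryos, Cdh5 being the most abundant. The 8 proliferation genes, led by Top2a, had a median of 0.11 with 0 past that level and sums of 1056 to 1258 FPKM in KO and 970 to 1100 FPKM in WT embryos. Macrophage markers, led by C1qb, had a median of -0.15 and summed to 40.4 to 45.5 FPKM in KO and 39.7 to 54.3 FPKM in WT embryos. Of the 6 markers of mast cells and progenitors, led by Cd34, 3 were tested and had a median of 0.02. The 6 summed to 28.8 to 36.4 FPKM in KO and 29.5 to 37.8 FPKM in WT embryos. For 1 of the 3 tested, Mpo, the Afp-low embryos were below the other 4. Mpo was at 7.0, 4.5 and 0.67 FPKM in KO and 10.3, 5.8, 1.1 and 1.9 FPKM in WT embryos. The part of these marker lists in the erythroid values was not tested.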

How the data were processed

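RNA of single whole embryos was made into TruSeq RNA v2 libraries. FPKM values per gene and embryo, fragments per kilobase scaled to depth, were computed and deposited by the authors, whose processing notes name Salmon, DESeq2, MultiQC and GRCm38 without roles or versions. The deposited columns of the authors' own comparison (mean signal, log2 fold change with error, p-values) were not used, and 0 columns of values were left unmapped. Summed FPKM was 770063 to 861448 per embryo, and relative depth, from the steps between low values, 0.809 to 1.22.

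Groups came from the labels. Genes averaging 1 FPKM or more were tested with limma 3.58.1 in R 4.3.3 (lmFit, eBayes with a trend) on log2(FPKM + 1), which understates changes of low genes, with Benjamini-Hochberg adjustment at 0.05. Single genes had exact permutation tests over the 35 ways to choose 3 of 7 embryos, printed for members with an unadjusted p under 0.05. The fit was tested on simulated data in which genes varied independently, so that test does not cover members that vary together. Members and lists were chosen with earlier results of these data known. All members are accounted for, and full statistics are given for those with an unadjusted p under 0.05 or without overlap, or else the 3 most abundant of a role. Of pathway lists, the 3 genes with the smallest p are named, apart from 1 that is not reported here, and of marker lists the most abundant, and others named here were chosen after their values were seen. Sequence shared with other transcripts was counted in stretches of 50 bases, on both strands because the kit does not keep strand, and 30 of the 33 members shared under 5%. Other settings tried were pseudocounts of 0.1 and 0.01, a minimum of 5 FPKM or none, 4 scalings, the KOAC series as a block, Xist or Afp as a covariate, a robust fit, embryo weights, summed symbols and leaving out each embryo.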

Additional observations from a re-analysis of the deposited data

Results flagged for a closer look

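Among the 4 WT embryos, Alad in KOAC10-2 was far from the others: its gap to the nearest embryo was 0.909 of the whole range. Of the 33 members examined in this way it was the 1 that passed, where chance gives about 1 in 20 groups, or 1.65 of 33. Hdhd3, the gene on one side of it, and Bspry beyond that were low in the same embryo and in the KO embryo KOAC10-8. Pole3, on the other side, was at 50.3 FPKM in KOAC10-2 and 62.5 FPKM in KOAC10-8, its lowest and highest values, and the cause was not tested.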

How the results depend on the processing

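Under 21 other settings and 7 more added after seeing the data (Afp as a covariate with each embryo left out), the count of members with an adjusted p under 0.05 was 0 throughout. The count lower in KO at an unadjusted p under 0.05, 8 as reported, was 24 with Afp as a covariate, and 20, 20, 21, 21, 24, 22 and 24 when KO embryos KOAC8-6, KOAC10-5 and KOAC10-8 and WT embryos KOAC8-1, KOAC10-7, KOAC9-1 and KOAC10-2 in turn were also left out (4.16 to 7.62% of all genes). It ran from 5 (without the WT embryo KOAC8-1 or KOAC9-1, where 5.57% and 4.24% of all genes were lower) to 14 (without the WT embryo KOAC10-7, 5.11%) when 1 embryo was left out with no covariate. The median log2 fold change then ran from -0.41 to -0.16, the highest without the KO embryo KOAC10-5, where 21 members were below 0. With the KOAC series as a replicate block, which the labels do not call a litter, the count was 7 (4.65% of all genes) and the median -0.21.

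Of the 32 members, 21 kept the sign of their log2 fold change under the 21 settings. Signs turned for Zfpm1 at -0.01 (a common sum without globins), -0.02 (Xist) and -0.17 (Afp), for Gfi1b at -0.21 and Hemgn at -0.07 (Afp), for Epor at 0.01 (embryo weights) and for Cpox at 0.17 (series block) and 0.15 (embryo weights). With 1 embryo left out the ranges that cross 0 were -0.56 to 0.17 for Gata1, -0.64 to 0.15 for Klf1, -0.20 to 0.30 for Zfpm1, -0.23 to 0.38 for Gfi1b, -0.38 to 0.19 for Epor, -0.24 to 0.28 for Cpox, -0.08 to 0.25 for Tfrc, -0.38 to 0.08 for Sptb, -0.45 to 0.03 for Rhag, -0.20 to 0.69 for Hemgn and -0.67 to 0.03 for Car2. For Gata1, Klf1, Epor, Cpox, Sptb, Rhag and Car2 the highest value was that without KOAC10-5, the Afp-low KO embryo. The sign turned for 7 members when KOAC10-5 was left out. The cause was not tested. The number of embryos limits what can be called, as does the presence of 1 KO embryo among the 3 low in Afp.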
